A study of Mus musculus with 8 samples.

Results

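The glycolysis and hypoxia response genes were followed in mouse pre-iPSCs, cells that had stopped partway through reprogramming, which had received Nanog, Sin3a, both or neither. The list named 36 genes by symbol, covering glucose uptake, the glycolytic enzymes, the handling of lactate and pyruvate, oxygen sensing and other hypoxia responses. Of these, 33 had at least 1 probe named for them, out of 19057 named genes on the array, and together they had 64 probes. Hk2, Gpi1 and Eno1 had no probe under those symbols. Each gene was read from its probe of highest mean over the 8 arrays, and the other probes served as a check.

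RNA was measured on Illumina bead arrays in 4 groups of 2 arrays: Nanog, Nanog with Sin3a (Nanog+Sin3a), Sin3a, and empty vectors (EV). All groups were female 129/MF1 cells made from neural stem cells, carried an Oct4-GFP-IRES-puro reporter, and were sampled at day 0 in serum with LIF, before the switch to the 2i medium. All received PiggyBac vectors with a CAG promoter and their transposase and were selected with hygromycin, blasticidin or both. The labels do not say which drug each group received. The Nanog and Sin3a groups each carried an empty vector as well. The labels do not say whether the 2 arrays of a group came from separate cultures or transfections, so the p-values speak only of how far those arrays spread.

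Glycolysis splits glucose into pyruvate through a chain of cytosolic enzymes, and lactate dehydrogenase turns pyruvate into lactate while restoring the cofactor that the chain consumes. When oxygen is low, the HIF transcription factors escape the prolyl hydroxylases that mark them for destruction and raise many genes of this pathway, along with genes for blood vessel growth, pH control and mitophagy. Pluripotent stem cells are known for high glycolytic flux, and a shift toward glycolysis accompanies reprogramming.

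Per array, 16157 to 16365 of 45281 probes lay above an intensity of 16, called the floor. Below the bright range the second Sin3a array stood apart. Of the 7812 probes with a mean log2 value between 5 and 8, 80.1% read more than 1 log2 unit apart on the 2 Sin3a arrays, against 0.205% on the 2 EV arrays. Comparisons without the Sin3a group therefore used the other 7 arrays, with 12806 features above the floor in at least 2 of them. Comparisons that needed both Sin3a arrays used all 8 arrays and the 2300 bright features, those with a mean over 9 on the log2 scale. The first set held 29 of the genes and the second 11. The Nanog probe read 365 and 486 with Nanog and 290 and 285 with Nanog+Sin3a, against -3.60 and -5.40 with EV, and the Sin3a probe read 1485 and 1483 with Nanog+Sin3a and 1182 and 1142 with Sin3a, against 329 and 262 with EV.

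HIF binds a short core, ACGTG or GCGTG, within hypoxia response elements. In the RefSeq promoter windows (GRCm38.p6, 300 bases around an annotated start), 34 of the 36 genes had an entry, with 52 windows in all. At least 1 core on either strand stood in 76.9% of these windows, against 43.8% of all 32851 windows. The genes were listed for glycolysis and hypoxia response, and the windows were not matched for base composition. The shares are therefore a description and not a test. The E-box CACGTG, which contains the first core, stood in 9.62% of them and in 7.15% of all windows. The promoters of 4 genes are given because they span the range of what the arrays showed: Pgk1 and Ankrd37 were lower with Nanog, Eno3 was higher, and Ldha passed in no comparison. They lie at chrX:106186850-106187149 (plus strand), chr8:45999801-46000100 (minus strand), chr11:70656926-70657225 (plus strand) and chr7:46845554-46845853 (plus strand). Capitals mark the cores on either strand.
Pgk1: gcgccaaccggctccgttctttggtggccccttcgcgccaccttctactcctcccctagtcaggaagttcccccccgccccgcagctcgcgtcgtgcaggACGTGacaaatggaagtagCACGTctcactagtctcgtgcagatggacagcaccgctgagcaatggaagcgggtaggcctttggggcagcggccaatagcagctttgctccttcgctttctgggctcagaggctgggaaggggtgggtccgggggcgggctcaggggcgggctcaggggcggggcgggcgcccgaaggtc
Ankrd37: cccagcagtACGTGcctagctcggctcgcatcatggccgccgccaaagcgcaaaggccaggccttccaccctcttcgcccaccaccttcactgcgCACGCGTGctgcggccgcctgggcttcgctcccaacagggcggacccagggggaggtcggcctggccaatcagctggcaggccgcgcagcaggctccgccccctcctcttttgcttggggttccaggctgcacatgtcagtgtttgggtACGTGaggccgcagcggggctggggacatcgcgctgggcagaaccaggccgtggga
Eno3: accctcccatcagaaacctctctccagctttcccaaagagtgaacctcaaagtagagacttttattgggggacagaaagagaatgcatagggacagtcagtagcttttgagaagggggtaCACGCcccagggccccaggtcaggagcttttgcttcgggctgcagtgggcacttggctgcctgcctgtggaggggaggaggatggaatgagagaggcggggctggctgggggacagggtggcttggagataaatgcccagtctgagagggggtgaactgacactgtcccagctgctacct
Ldha: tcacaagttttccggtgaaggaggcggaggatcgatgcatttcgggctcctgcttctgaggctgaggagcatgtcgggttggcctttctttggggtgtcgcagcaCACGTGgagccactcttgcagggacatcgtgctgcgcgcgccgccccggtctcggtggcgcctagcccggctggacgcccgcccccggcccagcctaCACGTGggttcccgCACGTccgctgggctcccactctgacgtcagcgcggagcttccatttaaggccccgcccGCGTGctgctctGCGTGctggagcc
The Ldha window held 7 cores, counting both strands of each E-box, Ankrd37 held 4, Pgk1 held 2 and Eno3 held 1, in the windows printed. A second Ldha window, at chr7:46846832-46847131, held 2. A match is a description of these letters and not a measured site.

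The effect of Nanog alone was read from Nanog against EV. Of the 29 genes tested, Eno3 rose and Pgk1 and Ankrd37 fell, while 26 did not pass. That is 3 genes, beside 2.69% of all 12806 features called, and the median difference of the 29 was -0.05 on the log2 scale against 0 for all features. The 2 Nanog arrays lay above both EV arrays for 7 genes, below both for 12, and overlapped them for 10, beside 25.3% of all features above and 24.6% below. Leaving out 1 array of a pair leaves 1 array in that group, and calls over all features varied widely between such fits. The count of 3 became 0 without either Nanog or either EV array and 1 without either Nanog+Sin3a array.

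The joint effect of the transgenes was read from Nanog+Sin3a against EV. Eno3 and Pfkp rose, Pgk1 fell, and 26 of 29 did not pass, beside 7.42% of all features called. The median difference of the 29 was -0.05 against 0.01 for all features, and the arrays did not overlap for 10 genes above EV and 11 below, beside 27.7% and 27.0% of all features. Both comparisons use the same 2 EV arrays. The count of 3 became 0 without either Nanog+Sin3a or either EV array. The plot of differences by gene shows both comparisons side by side.

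**Figure D1:**
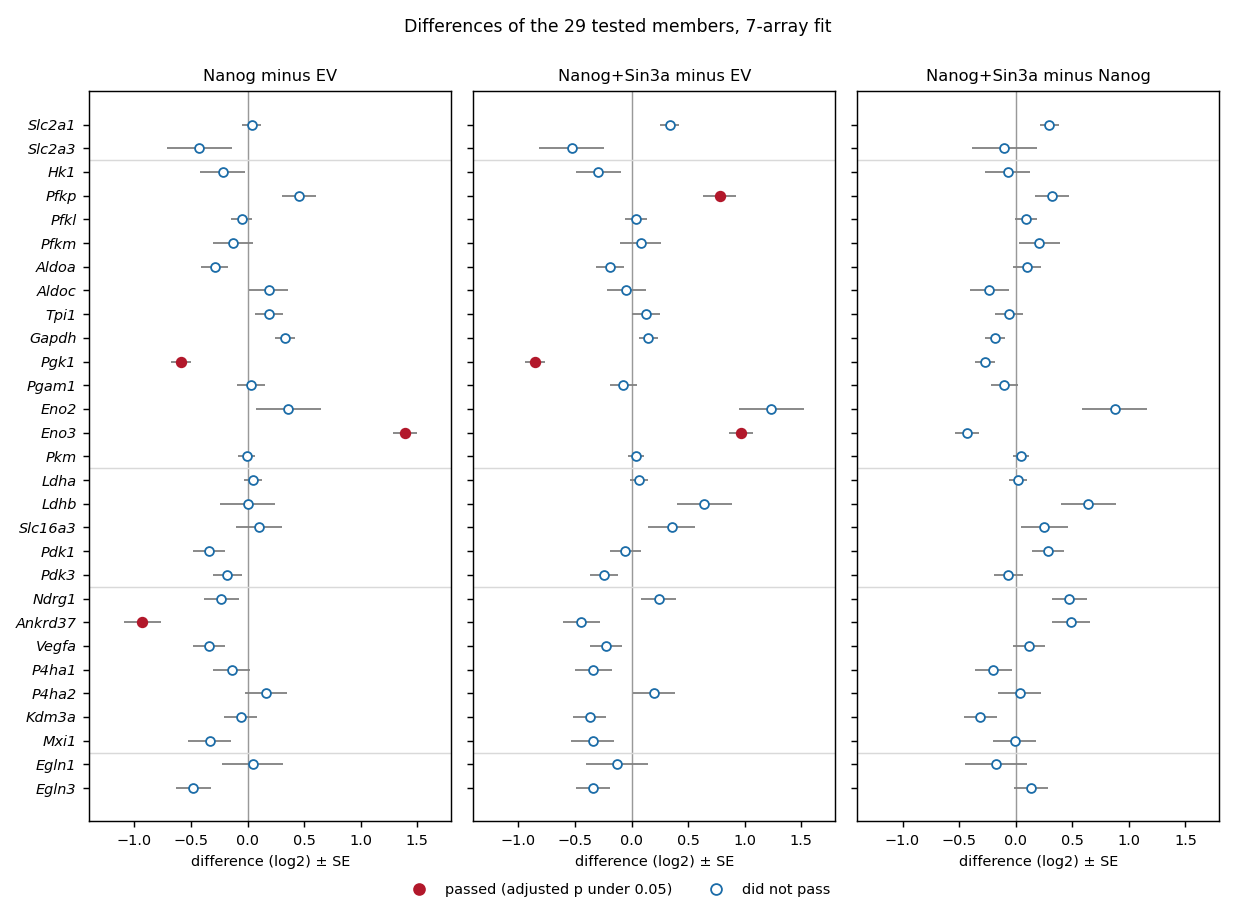
Differences on the log2 scale with their standard errors for the 29 tested genes, grouped by role with grey lines between groups, from the fit to 7 arrays. Filled red points passed the test (3 with Nanog against EV, 3 with Nanog+Sin3a against EV and 0 with Nanog+Sin3a against Nanog), and most open points lie near 0.

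Across all 8 arrays, the 4 arrays with Nanog were set against the 4 without it as the mean of Nanog minus EV and Nanog+Sin3a minus Sin3a. Of the 11 bright genes, Slc2a1, Tpi1 and Gapdh rose and Pgk1 and Egln3 fell, and 6 did not pass. That is 5 of 11, or 45.5%, beside 26.5% of the 2300 bright features. The count was 4 to 6 when any 1 array was left out. Calls over all bright features varied in those fits as well, each with 1 array left in a group. In the fit to 7 arrays, 4 of 29 genes passed, beside 8.12% of its features called. Eno3 (1.24), Pfkp (0.58) and Slc2a1 rose and Pgk1 fell, with the single Sin3a array assumed to vary like the other groups. Gapdh (adjusted p = 0.0817), Tpi1 (0.129) and Egln3 (0.162) did not pass in that fit. In all, 8 genes passed in at least 1 comparison and 21 of the 29 passed in none. For Tpi1 the direction with Nanog over 8 arrays depends on the probe, as given below.

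**Figure D2:**
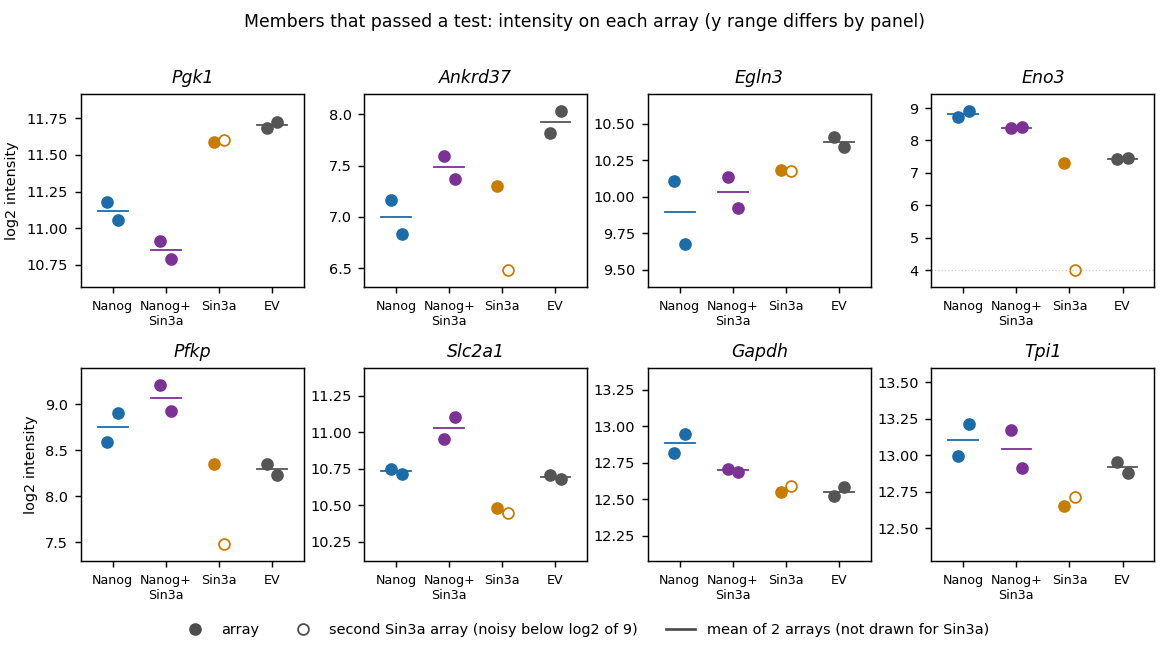
Intensity on each array, on a log2 axis whose range differs by panel, for the 8 genes that passed in at least 1 comparison, by group. Bars are means of 2 arrays and the open circle is the second Sin3a array, which is noisy below 9. Pgk1 is lower on all 4 arrays with Nanog than on all 4 without it, and Eno3 is higher on all 4.

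Among the glucose transporters, Slc2a1 encodes GLUT1, the main carrier for basal glucose uptake. Its probe read 1721 and 1680 with Nanog and 1985 and 2200 with Nanog+Sin3a, against 1429 and 1398 with Sin3a and 1674 and 1640 with EV. The Nanog+Sin3a arrays were the highest and the Sin3a arrays the lowest. Nanog+Sin3a was 1.48-fold above Sin3a (log2 0.56, SE 0.11, adjusted p = 0.00146 over the bright features), and this did not pass in 7 arrays (0.55, adjusted p = 0.0601). Against EV, the difference with Nanog+Sin3a was 0.34 (SE 0.08), which did not pass in 7 arrays (adjusted p = 0.0642) and passed over the bright features of 8 (0.0340). With Nanog alone the difference from EV was 0.04. Slc2a1 rose with Nanog over all 8 arrays (0.30, SE 0.07, adjusted p = 0.00646), with all 4 arrays that had Nanog above all 4 others, the closest pair being 1680 and 1674. The interaction, which asks whether the Sin3a effect differs with Nanog, was 0.53 (SE 0.15) and did not pass (adjusted p = 0.441). Slc2a3, a neuronal-type glucose carrier, was dim at 23.9 to 40.9 with Nanog or Nanog+Sin3a, against 41.4 and 49.1 with EV, and passed in no comparison.

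Of 16 glycolytic enzymes listed, 13 were tested. With Nanog 1 rose, 1 fell and 11 did not pass, beside 2.69% of all features called. With Nanog+Sin3a 2 rose, 1 fell and 10 did not pass, beside 7.42% called. The medians were 0.03 and 0.04 on the log2 scale.

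Pgk1 encodes phosphoglycerate kinase, which makes the first ATP of the pathway's payoff phase. It read 2322 and 2130 with Nanog and 1930 and 1768 with Nanog+Sin3a, against 3081 and 3104 with Sin3a and 3285 and 3388 with EV. No array with Nanog reached any array without it, and Nanog+Sin3a was the lowest group. Pgk1 fell by 0.59 with Nanog against EV (SE 0.09, adjusted p = 0.0279), by 0.85 with Nanog+Sin3a against EV (SE 0.09, 0.00622), and by 0.74 with Nanog+Sin3a against Sin3a (SE 0.10, 6.34e-05 over the bright features). The comparisons of Nanog with EV and of Nanog+Sin3a with Sin3a use no array in common. Their p-values are still not independent, since each fit estimates the spread over all groups. Over the bright features the adjusted p for Nanog against EV was 0.00130, beside 9.65% of features called. The adjusted p with both transgenes against EV was 1.08e-05, beside 17.0% called. In 7 arrays Pgk1 passed for Nanog against EV in 1 of 7 fits that left out 1 array, the one without the first Sin3a array, and for Nanog+Sin3a against EV in 3 of 7. For Nanog+Sin3a against Sin3a it passed in all 8 such fits. Between Nanog+Sin3a and Nanog the difference was -0.27 (95% interval -0.48 to -0.05), which did not pass (adjusted p = 0.350). The interval from -0.32 to 0.10 for Sin3a against EV spans 0 (difference -0.11, adjusted p = 0.870).

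The other probes of Pgk1 were dim and differed from each other. One read 21.0 and 8.30 with Nanog and 18.4 and 11.1 with Nanog+Sin3a, against 65.0 on the first Sin3a array and 56.1 and 66.0 with EV. It was below the floor on 1 Nanog and 1 Nanog+Sin3a array, so no difference is given for it. The other differed by -0.23 with Nanog and 0.26 with Nanog+Sin3a. Pdk3 is the other gene of the list whose promoter lies on the X chromosome, and its differences from EV of -0.18 (SE 0.13) and -0.24 (SE 0.13) did not pass.

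Eno3 encodes the muscle-type enolase. Its only probe read 426 and 483 with Nanog and 336 and 338 with Nanog+Sin3a, against 159 on the first Sin3a array and 172 and 174 with EV. Both groups with Nanog were well separated from those without, and Nanog alone was the highest. Eno3 rose 2.62-fold with Nanog (log2 1.39, SE 0.11, adjusted p = 0.00395) and 1.95-fold with Nanog+Sin3a (0.96, SE 0.11, 0.00751). It was also 2.13-fold above the single usable Sin3a array with Nanog+Sin3a (1.09, SE 0.13, adjusted p = 0.0193 in 7 arrays, with that array assumed to vary like the other groups, beside 1.96% of features called). Each of its calls against EV passed in 3 of 7 fits that left out 1 array. The second Sin3a array read 12.9, below the floor, and was not used. Nanog+Sin3a minus Nanog was -0.43 (95% interval -0.68 to -0.17), which did not pass (adjusted p = 0.264). Eno2, the neuronal enolase, was dim but in order, at 32.8 and 25.9 with Nanog and 41.2 and 69.5 with Nanog+Sin3a, against 23.4 and 22.1 with EV. Its difference of 1.23 (SE 0.29) for Nanog+Sin3a just missed the threshold (adjusted p = 0.0539), and it passed with median centring (0.0441) or without the first Sin3a array (0.0482).

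Pfkp, Pfkl and Pfkm encode the phosphofructokinase subunits of the committed step. Pfkp, the platelet-type subunit, read 386 and 479 with Nanog and 591 and 488 with Nanog+Sin3a, against 327 on the first Sin3a array and 327 and 301 with EV. The arrays with Nanog were all above the 3 others. Pfkp rose 1.71-fold with Nanog+Sin3a (log2 0.78, SE 0.15, adjusted p = 0.0324), and the difference of 0.45 with Nanog did not pass (0.166). The Nanog+Sin3a call passed in 2 of the 7 fits that left out 1 array, those without the second Nanog array or the first Sin3a array. A second Pfkp probe differed by 0.05 and 0.02, and the mean of all Pfkp probes gave 0.26 for Nanog+Sin3a against EV, which did not pass (adjusted p = 0.142). Pfkl and Pfkm, the liver and muscle subunits, differed from EV by -0.05 and -0.13 with Nanog and by 0.04 and 0.08 with Nanog+Sin3a, and passed in neither.

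Gapdh, the dehydrogenase often used as a loading control, read 7228 and 7906 with Nanog and 6702 and 6603 with Nanog+Sin3a, against 5988 and 6166 with Sin3a and 5895 and 6129 with EV. All 4 arrays with Nanog were above the other 4, by a small margin. It rose 1.17-fold with Nanog over 8 arrays (log2 0.23, SE 0.06, adjusted p = 0.00653). With Nanog+Sin3a the differences of 0.15 from EV and 0.13 from Sin3a did not pass over the bright features (adjusted p = 0.223 and 0.301). For Nanog against EV alone, the difference of 0.33 passed over the bright features (adjusted p = 0.0158) and not in the 7-array fit (0.107).

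Tpi1, triose phosphate isomerase, read 8162 and 9525 with Nanog and 9238 and 7718 with Nanog+Sin3a, against 6449 and 6719 with Sin3a and 7937 and 7542 with EV. The Sin3a arrays were the lowest, while the Nanog+Sin3a and EV arrays overlapped. Tpi1 rose 1.28-fold with Nanog+Sin3a against Sin3a (log2 0.36, SE 0.09, adjusted p = 0.0163) and by 0.27 (SE 0.07, 0.00522) with Nanog over 8 arrays. It did not pass with Nanog+Sin3a against Sin3a without the first Nanog+Sin3a array (adjusted p = 0.205) or without the first (0.103) or second (0.0853) Sin3a array. Another bright Tpi1 probe ran the other way against EV, at 2993 and 2614 with Nanog and 2822 and 3330 with Nanog+Sin3a, against 3693 and 4021 with EV (differences of -0.46 and -0.33). The direction of Tpi1 against EV therefore depends on the probe. This second probe read 2822 and 2949 with Sin3a. Its mean with Nanog+Sin3a was slightly above that with Sin3a (11.58 against 11.49 on the log2 scale), and those arrays overlapped. Its mean was 11.45 with Nanog and 11.91 with EV. Over all 8 arrays the second probe was thus lower with Nanog, so the rise of 0.27 depends on the probe too.

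No other enzyme passed. Aldoa, the main aldolase, read 1737 and 1427 with Nanog, against 1865 and 1991 with EV (-0.29, SE 0.12, adjusted p = 0.253). Pkm, pyruvate kinase, differed from EV by -0.01 with Nanog and 0.04 with Nanog+Sin3a, each with an SE of 0.07. Pgam1, the phosphoglycerate mutase, differed by 0.03 and -0.07 in the probe used. Its second, dimmer probe read 115 and 99.9 with Nanog and 60.1 and 55.9 with Nanog+Sin3a, against 126 and 162 with EV, a difference of -1.30 for Nanog+Sin3a. The mean of both Pgam1 probes passed there (-0.68, adjusted p = 0.0338). Hk1, a hexokinase, and Aldoc, the brain aldolase, were dim, with differences between -0.29 and 0.19, and did not pass.

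**Figure D3:**
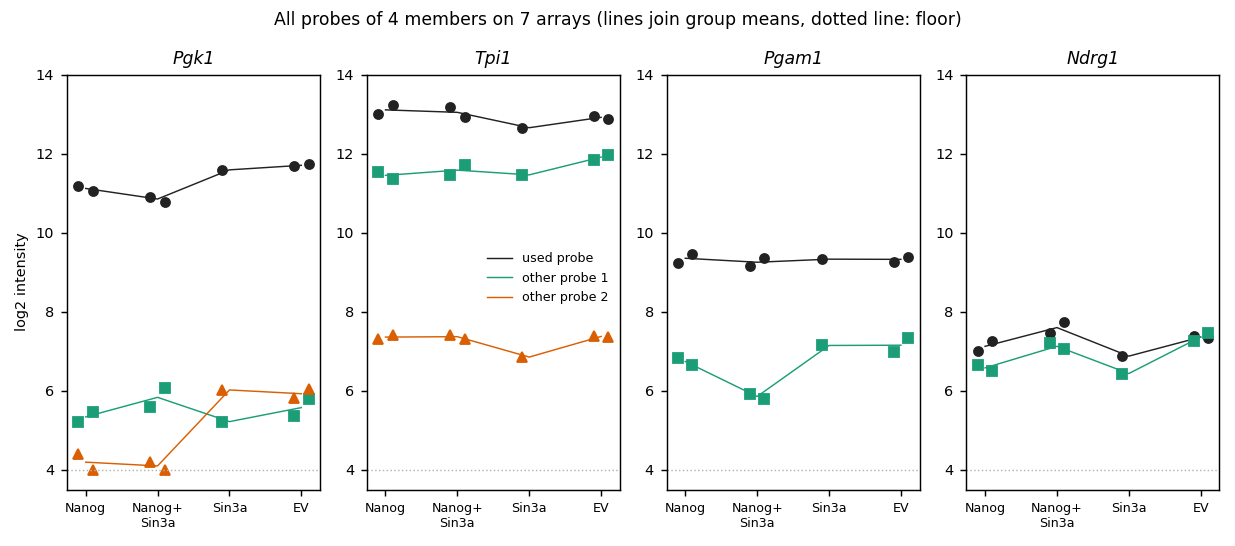
Log2 intensity of every probe of Pgk1, Tpi1, Pgam1 and Ndrg1 on 7 arrays, by group. Lines join group means and the dotted line is the floor of 4 on the log2 scale. The probes of Tpi1 and of Pgam1 run differently, and 1 dim Pgk1 probe reaches the floor on 1 Nanog and 1 Nanog+Sin3a array.

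No gene of lactate and pyruvate handling passed in any comparison, with 5 of 6 tested. Ldha, the lactate dehydrogenase subunit that favours lactate formation, was among the brightest probes and nearly level. It read 8424 and 8883 with Nanog and 8757 and 8798 with Nanog+Sin3a, against 8051 and 7718 with Sin3a and 8333 and 8424 with EV. Its differences from EV were 0.05 (95% interval -0.15 to 0.24) with Nanog and 0.07 (-0.13 to 0.26) with Nanog+Sin3a. Pdk1, a kinase that shuts pyruvate dehydrogenase, read 172 and 146 with Nanog, against 200.7 and 200.5 with EV (-0.34, SE 0.14, adjusted p = 0.245). Ldhb, the other lactate dehydrogenase subunit, was above the floor on 3 of 7 arrays. Slc16a3, the lactate exporter MCT4, read between 32.8 and 51.0 on the 7 arrays.

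Oxygen sensing was represented by Egln1 and Egln3, prolyl hydroxylases that mark HIF for destruction, of which Egln3 is itself a known HIF target. Egln3 read 1103 and 820 with Nanog and 1124 and 973 with Nanog+Sin3a, against 1165 and 1158 with Sin3a and 1359 and 1295 with EV. All 4 arrays with Nanog were below the other 4, with the closest pair 1124 and 1158. Egln3 fell by 0.32 with Nanog over 8 arrays (SE 0.09, adjusted p = 0.0185). It passed in 2 of the 8 fits that left out 1 array, and the others gave adjusted p-values of 0.0562 to 0.0852: without the second Nanog array, the second Nanog+Sin3a array, either Sin3a array or either EV array. Against EV, the difference of -0.48 with Nanog passed over the bright features (adjusted p = 0.0290) and not in 7 arrays (0.161). Egln1 was dim, at 21.9 to 36.8, and its differences of 0.04 and -0.13 did not pass.

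Of the 9 other hypoxia response genes, 7 were tested. With Nanog 1 fell, beside 2.69% of all features called. With Nanog+Sin3a none passed in limma (adjusted p of 0.157 or more), beside 7.42% called. The differences from EV were below 0 for 6 of 7 and 5 of 7. On the first Sin3a array, without Nanog, they were below 0 for all 7, from -0.12 to -0.63. This sign was therefore not particular to the groups with Nanog. All of these differences use the same 2 EV arrays. Of all 29 genes, 16 were below EV with Nanog, 15 with Nanog+Sin3a and 21 on the first Sin3a array. Ankrd37, an ankyrin repeat gene known as a HIF target, read 144 and 114 with Nanog and 194 and 166 with Nanog+Sin3a, against 157 on the first Sin3a array and 226 and 262 with EV. The EV arrays were above the 5 others. Ankrd37 fell by 0.93 with Nanog (SE 0.17, adjusted p = 0.0450), close to the threshold, and the difference of -0.44 with Nanog+Sin3a did not pass (0.157). It passed in 1 of the 7 fits that left out 1 array, the one without the first Sin3a array, and the other 6 gave adjusted p-values of 0.0899 to 0.381.

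Vegfa, the vascular growth factor, read 256 and 200 with Nanog, against 290 and 282 with EV (-0.34, SE 0.14, adjusted p = 0.257). Ndrg1, a stress-responsive gene, read 128 and 152 with Nanog and 176 and 214 with Nanog+Sin3a, against 168 and 160 with EV, so the groups with Nanog stood on either side of EV. Its second probe read 100.6 and 91.0 with Nanog and 147 and 132 with Nanog+Sin3a, against 155 and 175 with EV. The mean of both probes passed with Nanog (-0.51, adjusted p = 0.0483). Kdm3a, a histone H3K9 demethylase, differed by -0.06 with Nanog and -0.37 with Nanog+Sin3a. P4ha1 and P4ha2, collagen prolyl hydroxylases, differed by -0.14 and 0.16 with Nanog, and Mxi1, a MYC antagonist, by -0.33. None of these passed. The probes of Kdm3a differed, with another at 0.33 with Nanog and -0.0009 with Nanog+Sin3a and a further one at -0.05 and -0.39. The dimmer second probes of P4ha1 and P4ha2 differed by 0.12 and 0.44 with Nanog.

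Slc16a1, Bnip3, Car9 and Pfkfb3 were not tested. The probes used for this lactate carrier, mitophagy receptor, carbonic anhydrase and regulator of phosphofructokinase read between -14.2 and 14.7 on the 7 arrays, all below the floor. Of the other probes of Car9, 1 read 18.8 on the first Nanog array, above the floor on 1 of 7 arrays.

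Adding Sin3a on top of Nanog changed none of the 29 genes by limma, beside 0.0156% of all features (2 of 12806). At an unadjusted p under 0.05 there were 7, beside 1412 of all 12806 features. The arrays did not overlap for 9 genes above Nanog and 6 below, beside 17.9% and 16.9% of all features. Among genes above the floor on every array of both groups, the differences farthest from 0 were 0.88 for Eno2 (95% interval 0.19 to 1.57), 0.49 for Ankrd37, 0.47 for Ndrg1 and -0.43 for Eno3. The smallest adjusted p was 0.264, and intervals of this width do not show that the groups are alike.

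Sin3a alone against EV changed 0 of the 11 bright genes by limma, beside 0.174% of bright features. At an unadjusted p under 0.05 there were 2 genes, beside 180 of all 2300 bright features. The 2 genes were Tpi1 (-0.23, SE 0.09, adjusted p = 0.544) and Slc2a1 (-0.23, SE 0.11, 0.621), both lower with Sin3a. Nanog+Sin3a against Sin3a changed 3 of 11, Slc2a1 and Tpi1 upward and Pgk1 downward as given above, beside 11.6% of bright features. The interaction called 0 of 11, beside 0.0435% of bright features. Slc2a1 alone was at an unadjusted p under 0.05, beside 150 of all 2300 bright features.

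Other genes of the pathway were counted from 4 lists. With Nanog against EV, 0 of 11 HIF regulators passed, 1 of 21 other hypoxia response genes fell, 1 of 25 other glycolysis and pyruvate genes fell, and 0 of 10 pentose phosphate genes passed, beside 2.69% of all features called. The medians were -0.01, -0.02, -0.02 and 0.15 against 0 for all features. With Nanog+Sin3a the counts were 0 of 11, 1 down of 21, 2 down of 25 and 0 of 10, beside 7.42% of all features, with medians of -0.12, -0.06, 0.02 and 0.23 against 0.01. None of the genes that fell is an enzyme of glycolysis itself. Upp1, which cleaves uridine, read 552 and 514 with Nanog and 348 and 373 with Nanog+Sin3a, against 1178 and 1049 with EV (-1.06 and -1.63, adjusted p = 0.00679 and 0.00182). Aldh3a1, an aldehyde dehydrogenase, read 449 and 373 with Nanog and 428 and 413 with Nanog+Sin3a, against 829 and 759 with EV (-0.95 and -0.92). Pdp2, a phosphatase that switches pyruvate dehydrogenase on, differed by -0.94 with Nanog+Sin3a (adjusted p = 0.0416).

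Over all 8 arrays and the bright features, Tkt and Taldo1, the transketolase and transaldolase of the pentose phosphate pathway, rose with Nanog by 0.29 (SE 0.09, adjusted p = 0.0177) and 0.24 (SE 0.08, 0.0404), 2 of 4 measured. Tkt read 1994 and 1736 with Nanog and 2248 and 2829 with Nanog+Sin3a, against 1846 and 1631 with Sin3a and 1846 and 1765 with EV, so the Nanog and EV arrays overlapped. In the same comparison Bnip3l, a mitophagy receptor, fell by 0.38 (SE 0.08, adjusted p = 0.00230), as did Cited2, a known inhibitor of HIF activity (-0.37, SE 0.10, 0.0130), and Pdhb, a pyruvate dehydrogenase subunit (-0.34, SE 0.10, 0.0200). With Upp1 these were 2 of 6 on the hypoxia list, and 1 of 2 HIF regulators. With Aldh3a1, which is not itself a pyruvate enzyme, they were 2 of 6 on the glycolysis and pyruvate list. Of all bright features, 26.5% were called in either direction.

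The labelled cell type was checked with marker lists, counting a marker as above the floor where at least 2 of the 7 arrays were. Of 15 pluripotency markers 8 met this, while Esrrb, Tbx3, Utf1, Dppa4, Klf2, Fut4 and Lin28a did not. Pou5f1 read 957 to 1083 with Nanog and 1046 to 1167 with EV. Some of the 8 were near the floor, such as Sox2 at 0.4 to 17.4 with Nanog, Nanog+Sin3a or EV. Sall4 alone passed, falling by 1.37 with Nanog+Sin3a, and differed by -0.67 with Nanog. The list summed to 1492 to 1613 with Nanog and 1304 to 1510 with Nanog+Sin3a, against 1581.5 to 1685 with EV. Its medians were 0.07 and -0.08. Of 10 neural stem cell markers with a probe 3 met it, and Sox1, Pax6 and Fabp7 did not. The summed marker intensities of the lists besides pluripotency differed between the groups. Neural stem cell markers summed to 3152 to 3241 with Nanog and 3280 to 3444 with Nanog+Sin3a, against 2973 to 3001 with EV, but their median difference from EV was -0.51 with Nanog and -0.73 with Nanog+Sin3a. Vim was higher (0.27 and 0.38, the second passing), Egfr fell in both (-0.66 and -0.73), and Nes differed by -0.51 and -0.78, the second passing. Mesenchymal markers (5 of 12, with Col1a1, Col1a2 and Col3a1 not among them) summed to 976 to 1113 with Nanog and 1029 to 1049 with Nanog+Sin3a, against 860 to 865 with EV. Thy1 rose in both (1.13 and 0.75) and Dcn, below the floor on both EV arrays, passed with Nanog+Sin3a, while Twist1 (-0.28 and -0.20) and S100a4 (-0.35 and -0.12) were on the other side of 0 without passing, and the median was -0.07 with Nanog and 0.20 with Nanog+Sin3a. Epithelial markers (4 of 8, with Epcam not among them) summed to 1451 to 1548 with Nanog and 2456 to 2928 with Nanog+Sin3a, against 1695 to 1739 with EV, with medians of -0.24 and 0.17, and Krt14 alone passed (1.60 with Nanog+Sin3a). Blood and endothelial markers (3 of 5) summed to 99.1 to 109 with Nanog and 100.4 to 157 with Nanog+Sin3a, against 43.6 to 66.5 with EV, and Tek alone passed (1.22 with Nanog+Sin3a). Their part in the differences given above was not tested, and in bulk RNA fewer cells of a type and less RNA per cell cannot be told apart.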

How the data were processed

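The deposited values are intensity per probe on a linear scale, made with GenomeStudio per the submitters' processing notes; its version and settings are not given in the sources used here. Values ran from -24 to 14965.3 with 47.3% to 47.7% below 0, so a background had been subtracted, and their distribution was nearly the same on every array, so no further normalisation was applied. Values were raised to a floor of 16 before taking log2. A single symbol was listed for 34885 probes, more than 1 for 18, and 10378 had no symbol. Each symbol used its probe of highest mean log2 value, and unnamed probes stayed as features.

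Tests used limma 3.58.1 in R 4.3.3 (lmFit and eBayes with an intensity trend, 1 coefficient per group, two-sided), with Benjamini-Hochberg adjustment over all features of a fit at 0.05. The 7-array fit had 3 residual degrees of freedom and the 8-array fit of bright features 4. The procedure was tested on simulated data. The genes, lists, fits and alternatives were chosen with earlier results of these data known. All 36 genes are accounted for; values per array are given for those that passed and for others that a result turns on, and from each other pathway list up to 4 genes that passed. The number of arrays limits the precision. No scan date or slide was given, so batches were not examined.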

Additional observations from a re-analysis of the deposited data

How the results depend on the processing

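Of the count of 3 with Nanog against EV, 0 were left with all 8 arrays and all features (5 at an unadjusted p under 0.05 in limma), 1 with no filter on low values, 1 without the intensity trend and 1 with the replicate number as a block, and leaving out 1 array gave 0 to 3. The numbers do not pair the arrays, since deviations of arrays with the same number correlated at -0.06 to -0.02 across features, and the block gave 2 genes for Nanog+Sin3a against EV and left the counts of the other comparisons as they were. Over all features the block gave 198 calls with Nanog and 529 with Nanog+Sin3a, each against EV. For Nanog+Sin3a against EV the count of 3 became 1 with all 8 arrays and all features and 0 with no filter (6 at an unadjusted p under 0.05), and 0 to 4 with 1 array left out. With all 8 arrays and all features, 1 gene passed for Nanog+Sin3a against Sin3a in place of 3, and 1 for Nanog over all arrays in place of 5. The last count was 2 with the mean of all probes, where 5 of the genes were above 9. The cause of these changes was not tested, apart from the fewer genes in that last fit. For the counts given here at an unadjusted p under 0.05, the share of all features was not computed. Pgk1 passed for Nanog over all arrays, and for Nanog+Sin3a against Sin3a, in the 9 alternatives that gave a value and all 8 fits without 1 array. For single genes, 70 values lost their call, 8 gained one and none turned direction with a call. No alternative read a gene from another single probe, so a probe that runs the other way, as for Tpi1, could enter only through the mean of all probes. Over all features, the count for Nanog against EV was 345 and ran from 0 to 574 across the alternatives that left out no further array, and for Nanog+Sin3a against EV it was 950 and ran from 35 to 1277. For Nanog+Sin3a against Sin3a it was 266 and ran from 20 to 267, and for Nanog over all arrays 609 and from 140 to 1040.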
